A study of Homo sapiens with 24 samples.

Results

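The nonsense-mediated decay (NMD) factors described here are 9 genes, UPF1, UPF2, UPF3A, UPF3B, SMG1, SMG5, SMG6, SMG8 and SMG9, chosen by name and followed as RNA in 24 libraries of HCT116 cells, a human colorectal cancer line. They are 9 of the 57721 genes to which transcript estimates were summed, and all 9 were among the 24153 genes with enough reads to be tested. The study removed or depleted TNRC6 paralogs, scaffold proteins of the Argonaute silencing complex, and sequenced whole-cell RNA as 3 libraries in each of 8 groups. Cells without transfection were TNRC6A-/-, TNRC6B-/-, TNRC6AB-/- (both genes mutated) and wild type (WT). Transfected cells were TNRC6AB-/- siTNRC6C (the double knockout given a pool of duplex RNAs against TNRC6C), TNRC6AB-/- siGL2 (the double knockout given a control duplex), WT siTNRC6C and WT siGL2. All cells were grown in the same medium at passages 12 to 18. Each knockout was 1 line, in which TNRC6A carried a frameshift point mutation and TNRC6B a large deletion, so that genotype and line cannot be told apart. The labels do not say that the 3 libraries of a group came from separate cultures, and p-values then measure only the spread between these libraries, which may be technical. In bulk RNA, fewer cells with a transcript and less of it per cell cannot be told apart.

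NMD is the cytoplasmic pathway that degrades mRNAs on which translation ends too early, typically upstream of a remaining exon junction complex. The helicase UPF1 is its core. UPF2 bridges UPF1 to UPF3A and UPF3B, paralogs that contact the exon junction complex, and UPF3B is the more active of the pair. The kinase SMG1, held in a complex with its regulators SMG8 and SMG9, phosphorylates UPF1, and phosphorylated UPF1 then binds the endonuclease SMG6 and the adaptor SMG5. NMD also trims the mRNAs of several of its own factors, which makes their levels a familiar readout of the pathway.

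Facts of the whole series set the precision of what follows. Depth ran from 28144290 to 42689320 estimated reads per library (median 34465674). Spread between libraries of a group was narrower with transfection (common biological coefficient of variation 0.0619 over 12 libraries) than without it (0.202 over 12), whereas the main test, edgeR's quasi-likelihood test over all 24 libraries, uses 1 estimate of spread for each gene. In WT replicate 2, TNRC6B-/- replicate 1, TNRC6AB-/- replicate 1 and WT siGL2 replicate 3, annotated retained-intron transcripts took 4.33 to 5.74% of reads, the highest share of their own group. Many, not all, of the members' calls and list counts that rest on these libraries are also given without them. These 4 libraries also deviated most from the mean of their own group (root mean square of log2 CPM 0.365 to 0.515), and were picked after the data were seen. TNRC6AB-/- siGL2 replicate 3 was also the highest of its group (4.5%, deviation 0.306), and was kept. Without the 4, more of all genes passed, for example 17.4% up and 7.52% down in TNRC6B-/- against WT, beside 3.14% in the main test. Lower adjusted p-values in that fit are thus no independent support. The targeted genes matched the labels: TNRC6A averaged 51.0 CPM (reads relative to library size, scaled by TMM) in TNRC6AB-/- cells and 111 in WT cells, TNRC6B 93.1 and 192, and TNRC6C 19.7 in TNRC6AB-/- siTNRC6C cells and 120 in TNRC6AB-/- siGL2 cells. Of 8 colon epithelial markers, VIL1 stayed at or below 0.441 CPM in every library, and the others were at 5.7 CPM or more. In TNRC6AB-/- siTNRC6C against WT siGL2, 3 of the 8 fell (EPCAM, CDH1 and CDX2) and none rose, beside 25.2% and 17.0% of all genes. Without the 4 libraries 6 fell and none rose there, beside 32.8% and 25.7% of all genes. In TNRC6A-/- and TNRC6AB-/- against WT EPCAM and CDH1 fell and 2 keratins rose. There 5.47% and 12.3% of all genes fell, and 8.52% and 17.2% rose. CDH1, over all libraries at 10.8 to 135 CPM, had 24 to 25.4 CPM in TNRC6AB-/- siTNRC6C and 61.4 to 67.4 CPM in WT siGL2. The 10 markers of blood, endothelium and fibroblasts summed to 47.1 to 52.4 CPM in TNRC6AB-/- siTNRC6C cells, 32.3 to 37.2 in TNRC6AB-/- siGL2 cells and 20.8 to 25.9 in WT siGL2 cells. COL1A1 (15.6 to 45.1 CPM) made most of these sums, and CD3E had no reads in 20 libraries, LUM in 18, CDH5 in 3 and CD14 in 1. Of these markers 6 were tested, and in TNRC6AB-/- siTNRC6C against WT siGL2 3 of the 6 (COL1A1, VWF and PTPRC) rose, beside 17.0% of all genes. Without the 4 libraries 5 rose and none fell there, beside 25.7% and 32.8% of all genes. The part of these markers in the results was not tested.

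To compare genes with each other, levels must be taken per length, as TPM, which divides reads by transcript length and scales each library to the same total. In WT cells SMG1 stood highest, at 68.6 to 90.5 TPM over the 3 libraries. UPF1 (21.3 to 24.0 TPM), SMG9 (19.8 to 25.1), UPF3A (17.2 to 24.2) and SMG5 (17.2 to 21.2) followed with ranges that overlapped, then UPF2 (16.4 to 17.0), SMG6 (12.4 to 13.8), UPF3B (12.2 to 13.4) and SMG8 (6.51 to 8.75). Neighbours in this order overlapped within the group of 4 and between SMG6 and UPF3B, and not elsewhere.

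This order depended on which annotated transcripts were counted. Transcripts under 1000 bases held on average 57.1% of the TPM of SMG9 on 16.4% of its reads (mean over 24 libraries), 46.3% of the TPM of SMG6 on 5.75% of its reads, 41.2% of UPF1 on 5.23% and 38.0% of SMG1 on 3.5%. SMG8, by contrast, had 1.07% of its TPM there. The transcript with the most reads held on average 21.4% of the TPM of SMG1 and 20.6% of that of UPF3A. Counting it alone thus leaves out other long transcripts as well as short ones. Counted by the transcript with the most reads alone, the order in WT cells was different: SMG1-202 (12.5 to 17.5 TPM), SMG5-201 (11.8 to 15) and UPF2-202 (12.0 to 14.3) led with ranges that overlapped, and UPF1-201 (7.58 to 9.11), UPF3B-202 (8.33 to 8.90) and SMG8-201 (5.99 to 8.44) followed, also overlapping. SMG6-201 (5.20 to 5.62) lay below them, UPF3A-204 (3.38 to 5.85) overlapped it, and SMG9-201 was lowest (2.17 to 2.48 TPM).

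**Figure D1:**
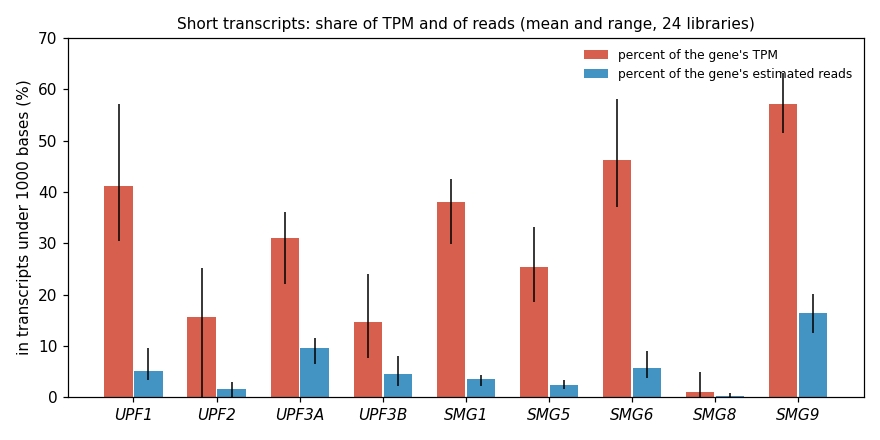
Bars give the percentage of each gene's TPM (red) and of its estimated reads (blue) that Salmon placed on annotated transcripts shorter than 1000 bases, as the mean of 24 libraries, and lines span the lowest and highest library. The share of TPM exceeds the share of reads for all 9 genes, from 57.1% against 16.4% for SMG9 to 1.07% against 0.183% for SMG8.

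The coding share differed in the same way. Protein-coding transcripts held 98.9% of the TPM of SMG8 (mean of the 8 group means), 91.1% of UPF3B, 86.5% of SMG6 and 84.4% of UPF2, but 36.6% of UPF3A and 32.5% of SMG9. For UPF3A the rest lay in processed transcripts without a reading frame and in retained-intron transcripts (46.3% and 19.0% in WT cells, n = 3), and the transcript with the most reads, UPF3A-204, is itself a processed transcript of 1791 bases. For SMG9 it lay in retained-intron transcripts, at 68.5 to 72.5% of TPM in TNRC6AB-/- siTNRC6C cells, against 61.1 to 64.6% in WT siGL2 cells. The retained-intron share of SMG1 was 34 to 36.5% in TNRC6AB-/- siTNRC6C cells and 24.7 to 32.8% in WT siGL2 cells, and that of UPF1 was 13.0 to 18.9% and 12.4 to 13.8%. That of UPF3B was 10 to 13.2% and 4.89 to 5.78%. SMG9, SMG1 and UPF3B did not overlap between the groups, and UPF1 overlapped by TPM and not by reads (9.47 to 11% in TNRC6AB-/- siTNRC6C and 5.05 to 7.42% in WT siGL2). UPF3A also overlapped by TPM (19.8 to 23.5% and 14.1 to 21%) and not by reads (25.1 to 28.2% and 16.6 to 24.6%). SMG5 overlapped by both (29.8 to 30.6% and 18.7 to 33% of TPM). SMG6 has 2 annotated retained-intron transcripts, whose share is not given here. Overlap was not counted over all genes. No test was made of these shares, since an exact permutation test of 3 libraries against 3 cannot go below 0.10. The share of all reads on retained-intron transcripts moved with them, at 4.32 to 4.55% in TNRC6AB-/- siTNRC6C libraries against 3.28 to 4.33% in WT siGL2 libraries, and its part in them was not tested.

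Because TPM was not scaled between libraries and is carried in part by short transcripts, groups were compared on read counts. In TNRC6AB-/- siTNRC6C against WT siGL2 the median log2 difference of all genes was 0.30 in TPM (log2 of TPM + 1) and 0.01 in counts. Relative to that median, SMG9 was higher by 0.60 in TPM and UPF1 by 0.39, while their fitted log2 fold changes in counts were 0.23 and -0.06. Of the 9 genes, 5 had their highest group mean TPM in TNRC6AB-/- siTNRC6C cells (UPF1, UPF3A, SMG1, SMG6 and SMG9), and by CPM UPF3A alone did.

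**Figure D2:**
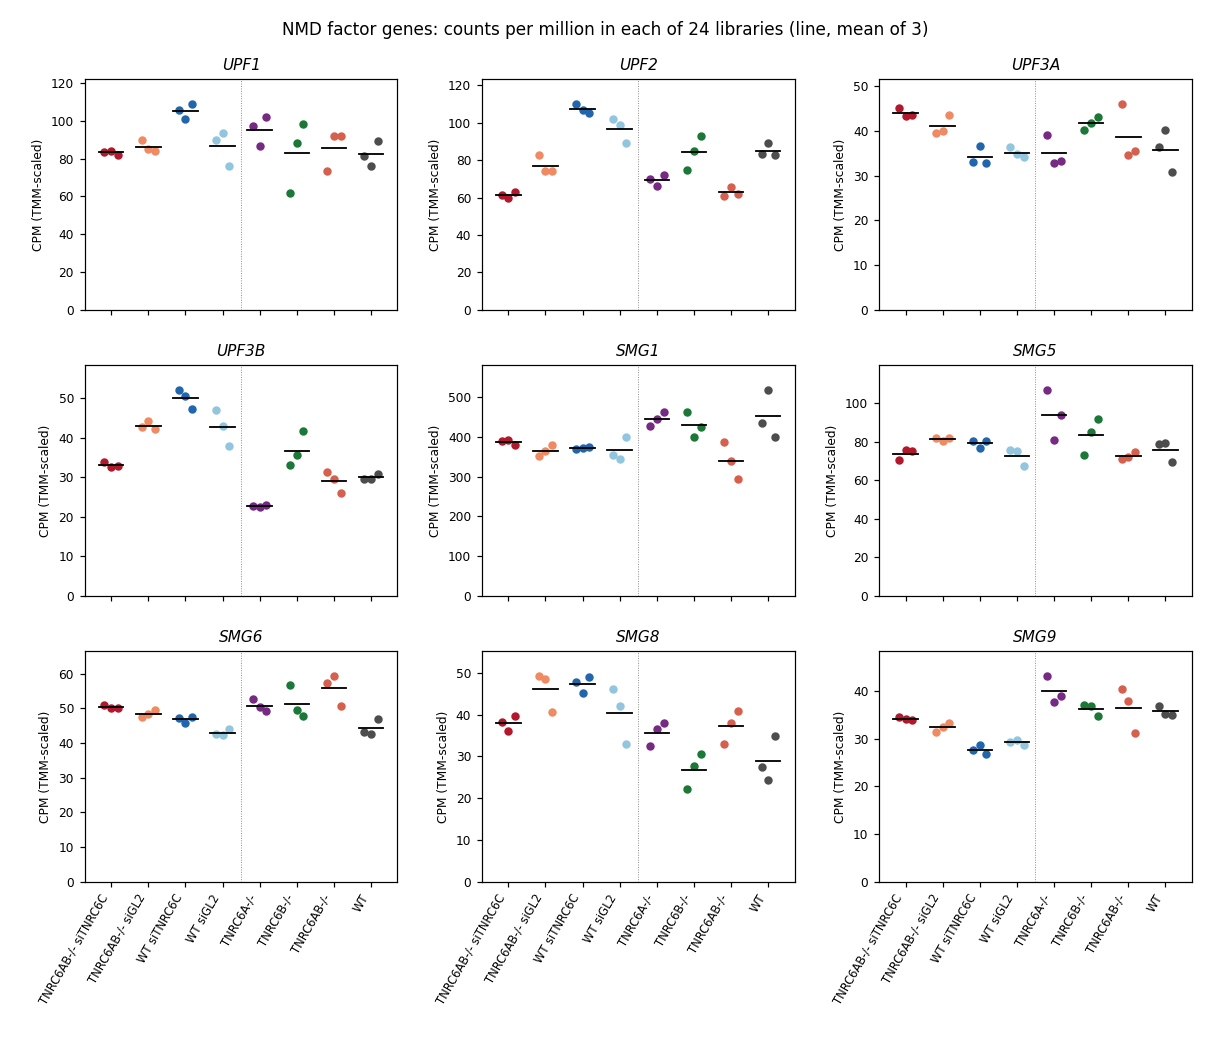
Each panel plots 1 NMD factor gene, with TMM-scaled CPM from 0 on the y axis and the 8 groups along the x axis, transfected groups left of the dotted line, untransfected groups right of it. Points are the 3 libraries of a group and lines their means, and UPF2 sits at 59.7 to 63.0 CPM in TNRC6AB-/- siTNRC6C and at 88.9 to 102 CPM in WT siGL2.

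UPF2 (ENSG00000151461.19, GRCh38 chromosome 10, 11920022 to 12043170, minus strand) was the member called most often: it was lower in 5 of the 7 comparisons of genotype or siTNRC6C. Several of these comparisons share libraries and are not independent of each other. TNRC6AB-/- siTNRC6C libraries had 61.1, 59.7 and 63.0 CPM, TNRC6AB-/- siGL2 libraries 82.9, 74.1 and 74.0 CPM, WT siTNRC6C libraries 110, 107 and 105 CPM, and WT siGL2 libraries 102, 98.8 and 88.9 CPM. Without transfection, TNRC6A-/- libraries had 70, 66.2 and 72.0 CPM, TNRC6B-/- libraries 74.7, 84.9 and 93.1 CPM, TNRC6AB-/- libraries 60.8, 65.6 and 61.9 CPM, and WT libraries 83, 89.3 and 82.6 CPM. The double knockout thus lay below WT cells of the same transfection state, with or without transfection, while TNRC6AB-/- siGL2 overlapped untransfected WT. Untransfected WT cells and TNRC6B-/- cells overlapped, and the lowest untransfected WT library lay above the highest TNRC6A-/- library.

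By edgeR's quasi-likelihood test with Benjamini-Hochberg adjustment over 24153 genes, UPF2 fell by 0.66 on the log2 scale in TNRC6AB-/- siTNRC6C against WT siGL2 (SE 0.0865, adjusted p = 2.35e-06, n = 3 each), with a 95% interval of -0.84 to -0.48. On TPM this was -0.24 (-0.54 relative to the median of all genes) and did not pass (log2 of TPM + 1, limma, adjusted p = 0.147). UPF2 fell by 0.44 in TNRC6AB-/- against WT (SE 0.0865, adjusted p = 0.000448, edgeR), by 0.33 in TNRC6AB-/- siGL2 against WT siGL2 (adjusted p = 0.00743, edgeR; on TPM -0.02, or -0.21 relative to the median of all genes, limma, adjusted p = 0.921, and lost without a filter on low counts) and by 0.33 in TNRC6AB-/- siTNRC6C against TNRC6AB-/- siGL2 (adjusted p = 0.0248, edgeR). The fall of 0.29 in TNRC6A-/- against WT (adjusted p = 0.0261, edgeR) was lost with the 12 untransfected libraries alone, without WT replicate 2, and without TNRC6A-/- replicate 1 or 2 (adjusted p up to 0.103). That in TNRC6AB-/- siTNRC6C against TNRC6AB-/- siGL2 was lost on leaving out any of its 6 libraries except TNRC6AB-/- siGL2 replicate 3 (adjusted p up to 0.151), although in a fit of the 12 transfected libraries its adjusted p was 0.000146. UPF2 did not pass in TNRC6B-/- against WT (log2 -0.01, 95% interval -0.20 to 0.17). Leaving out the 4 libraries with high retained-intron shares left the falls at 0.72 (TNRC6AB-/- siTNRC6C against WT siGL2), 0.38 (TNRC6AB-/-) and 0.25 (TNRC6A-/-), all past the threshold (adjusted p of 1.23e-08, 0.00037 and 0.00882).

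Almost all UPF2 reads, 91.1 to 98.3% over the libraries, were on the coding transcript UPF2-202 of 5193 bases. Among 11762 genes of at least 5 CPM on average, the group means most like those of UPF2 over the 8 groups (Pearson's r of log2 CPM, a description without a test) belonged to RXYLT1 (r = 0.997), RPP38 (0.994) and BCL10 (0.994).

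**Figure D3:**
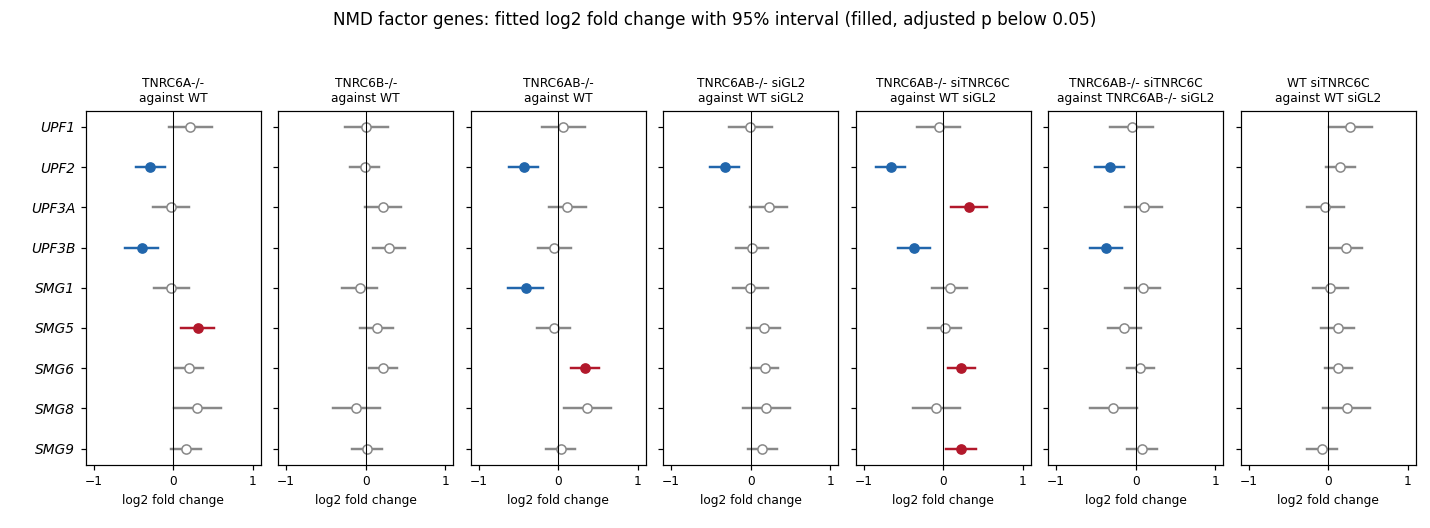
Each panel is 1 of 7 comparisons, named above it, with the fitted log2 fold change (x axis) of the 9 NMD factor genes, positive where the group named first is higher. Lines are 95% intervals, filled points passed an adjusted p of 0.05 (red higher, blue lower) and open points did not; UPF2 is filled in 5 panels, and UPF1 and SMG8 in none.

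Calls over the 9 genes were counted in each comparison. In TNRC6A-/- against WT 3 of 9 were called, SMG5 up and UPF2 and UPF3B down, against 14.0% of all tested genes (8.52% up and 5.47% down). In TNRC6AB-/- against WT 3 of 9 were called, SMG6 up and UPF2 and SMG1 down, against 29.4% of all genes (17.2% up, 12.3% down). In TNRC6AB-/- siTNRC6C against WT siGL2 5 of 9 were called, UPF3A, SMG6 and SMG9 up and UPF2 and UPF3B down, against 42.2% (17.0% up, 25.2% down). TNRC6AB-/- siTNRC6C against TNRC6AB-/- siGL2 gave 2, UPF2 and UPF3B, both down, against 6.56% of all genes (4.37% down), and TNRC6AB-/- siGL2 against WT siGL2 gave UPF2 alone, down, against 21.7% (12.5% down). The median log2 fold change of the 9 lay between -0.05 and 0.16 in these 5 comparisons, beside -0.02 to 0.02 for all genes.

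No member was called by edgeR in TNRC6B-/- against WT, where 3.14% of all genes were, nor in WT siTNRC6C against WT siGL2, where 0.932% were. In TNRC6B-/- cells 2 members had an unadjusted p under 0.05 (UPF3B and SMG6), and DESeq2 called UPF3B (adjusted p = 0.0373). Without the 4 libraries UPF3A and UPF3B were called, both higher, beside 17.4% of all genes up and 7.52% down in that fit. In WT siTNRC6C cells 2 had an unadjusted p under 0.05 (UPF1 and UPF3B), DESeq2 called none, and limma voom called 1.

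Fits of a single transfection state changed these counts most. With the 12 transfected libraries alone, 5 members were called in WT siTNRC6C against WT siGL2, all higher, where 19.9% of all genes were called, and 6 in TNRC6AB-/- siGL2 against WT siGL2 (5 higher and 1 lower, with 40.1% of all genes). In that fit 7 were called in TNRC6AB-/- siTNRC6C against WT siGL2, SMG1 and SMG5 in addition, both higher (58.7% of all genes), and 3 against TNRC6AB-/- siGL2, SMG8 in addition, lower (32.4%). On TPM, 7 were called in TNRC6AB-/- siTNRC6C against WT siGL2, all higher (all except UPF2 and UPF3B, with 49.2% of all genes). With the 12 untransfected libraries alone, TNRC6A-/- gave 0 and TNRC6AB-/- gave UPF2 only (4.75% and 18.5% of all genes).

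UPF3B (ENSG00000125351.11, chromosome X, 119805311 to 119852998, minus strand) was lower where siTNRC6C was added to the double knockout. It had 33.9, 32.7 and 32.8 CPM in TNRC6AB-/- siTNRC6C libraries, against 42.8, 44.3 and 42.1 CPM in TNRC6AB-/- siGL2 libraries and 47.1, 43 and 38.0 CPM in WT siGL2 libraries. WT siTNRC6C libraries had 52.1, 50.6 and 47.2 CPM, all above those of WT siGL2. The fall was 0.38 on the log2 scale against TNRC6AB-/- siGL2 (SE 0.0946, adjusted p = 0.0187, edgeR) and 0.37 against WT siGL2 (SE 0.0947, adjusted p = 0.00341, edgeR), and the first was lost without any of its 6 libraries except TNRC6AB-/- siGL2 replicate 3 (adjusted p up to 0.0828). On TPM, UPF3B in TNRC6AB-/- siTNRC6C against WT siGL2 differed from the median of all genes by 0.002 only, so its fall there is a result of read counts. The falls were, without the 4 libraries, 0.44 against WT siGL2 (adjusted p = 4.34e-05, edgeR) and 0.38 against TNRC6AB-/- siGL2 (adjusted p = 0.000414, edgeR).

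Without transfection the pattern was different. TNRC6A-/- libraries had 22.6, 22.5 and 22.9 CPM, against 29.5, 29.6 and 30.7 CPM in WT libraries, a fall of 0.40 (SE 0.0962, adjusted p = 0.00692, edgeR) that passed with each library left out and not with the 12 untransfected libraries alone (adjusted p = 0.0853) or on TPM. TNRC6AB-/- libraries, at 31.3, 29.6 and 26.0 CPM, overlapped WT (log2 -0.05, 95% interval -0.25 to 0.16).

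UPF3B and its paralog UPF3A each have an optional exon in frame, shown here because it sets apart the pair of full-length coding transcripts of each gene. UPF3A-202 includes exon 4, of 99 bases, and UPF3A-201 skips it. UPF3B keeps the matching exon 4 in both of its main transcripts, and the pair of sequences is identical at 67 of 99 positions (67.7%, aligned without gaps). In UPF3B the optional exon is exon 8, of 39 bases, present in UPF3B-201 and absent from UPF3B-202. Exon bases are in capitals and the 15 bases of the neighbouring exons on each side in lower case, read 5′ to 3′ in the sense of the mRNA from GENCODE 29 transcripts (GRCh38); UPF3A exon 4 lies at chr13:114286302-114286400 on the plus strand, and UPF3B exons 4 and 8 lie at chrX:119845198-119845296 and chrX:119840646-119840684 on the minus strand, all within the coding sequence.
UPF3A exon 4: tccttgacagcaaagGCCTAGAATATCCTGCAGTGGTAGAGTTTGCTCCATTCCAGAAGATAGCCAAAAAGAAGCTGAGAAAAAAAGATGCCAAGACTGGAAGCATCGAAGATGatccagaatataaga
UPF3B exon 4: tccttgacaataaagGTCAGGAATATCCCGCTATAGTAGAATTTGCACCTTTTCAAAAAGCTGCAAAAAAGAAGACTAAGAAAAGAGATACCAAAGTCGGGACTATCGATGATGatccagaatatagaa
UPF3B exon 8: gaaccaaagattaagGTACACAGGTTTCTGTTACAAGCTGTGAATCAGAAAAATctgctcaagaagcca

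**Figure D4:**
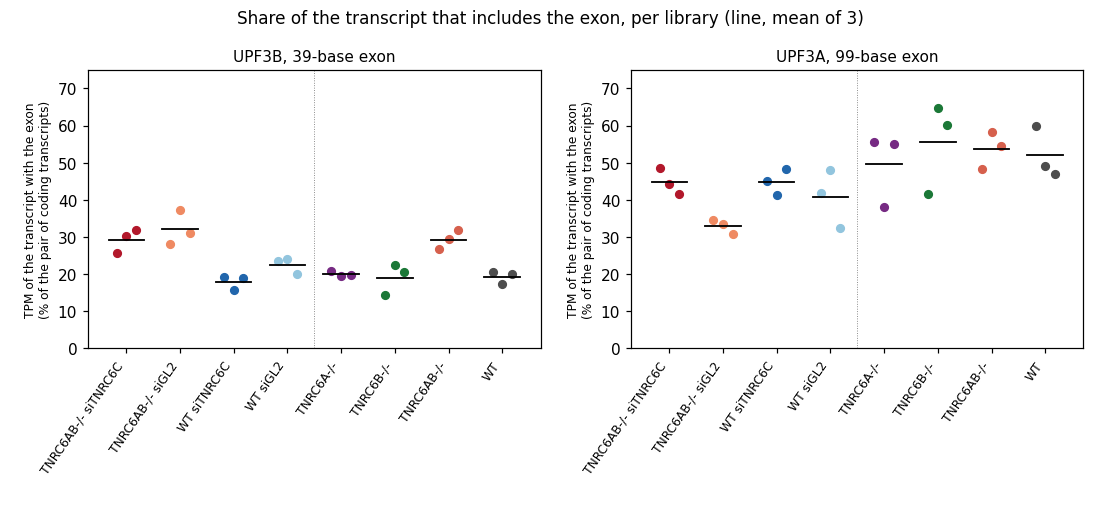
The y axis is the TPM of the transcript that includes the exon as a percentage of the pair of coding transcripts (UPF3B-201 of UPF3B-201 and UPF3B-202 on the left, UPF3A-202 of UPF3A-201 and UPF3A-202 on the right), in the 8 groups; points are libraries and lines means of 3. For UPF3B the 9 libraries of TNRC6AB-/- cells sit between 25.6 and 37.3%, and the other 15 between 14.2 and 24.1%.

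The exon 8 form of UPF3B took a larger share in every double knockout group. These transcripts were picked after their values were seen, and the shares are a description without a test. TNRC6AB-/- libraries had 26.7, 29.3 and 31.8% of the pair's TPM on UPF3B-201, against 20.6, 17.4 and 19.9% in WT libraries. TNRC6AB-/- siGL2 libraries had 28, 37.3 and 31.1%, and TNRC6AB-/- siTNRC6C libraries 25.6, 30.2 and 31.8%, against 23.6, 24.1 and 19.9% in WT siGL2 libraries. All 9 libraries of the double knockout lay above all libraries of the other groups. The double knockout libraries came from the same line, so that genotype and line cannot be told apart here. How common such separation is was not counted over the transcript pairs of all genes. The single knockouts, at 19.5 to 20.9% (TNRC6A-/-) and 14.2 to 22.3% (TNRC6B-/-), overlapped WT, as did WT siTNRC6C (15.7 to 19.2%). By estimated reads in place of TPM the group means were 29.7% in TNRC6AB-/- and 19.6% in WT.

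UPF3A (ENSG00000169062.14, chromosome 13, 114281584 to 114305817, plus strand) was the only member whose CPM was highest in TNRC6AB-/- siTNRC6C, at 45.0, 43.3 and 43.5 CPM, against 36.3, 34.7 and 34.2 CPM in WT siGL2. The difference was 0.33 on the log2 scale (SE 0.108, adjusted p = 0.0193, edgeR), and without TNRC6AB-/- siTNRC6C replicate 1 or WT siGL2 replicate 2 it no longer passed (adjusted p up to 0.0591). It was 0.31 without the 4 libraries (adjusted p = 0.00436, edgeR). Counting protein-coding transcripts alone it was 0.18 and did not pass (adjusted p = 0.256). UPF3A rose in that comparison while its paralog UPF3B fell. The share of UPF3A-202, with exon 4, was 41.5 to 48.5% in TNRC6AB-/- siTNRC6C and 32.4 to 47.9% in WT siGL2, which overlapped, and had its lowest mean in TNRC6AB-/- siGL2 (30.7 to 34.5%), which overlapped WT siGL2.

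Among the kinase and its regulators, SMG1 (ENSG00000157106.16, chromosome 16, 18804853 to 18926454, minus strand) was lower in the double knockout without transfection. TNRC6AB-/- libraries had 387, 340 and 294 CPM, against 436, 519 and 401 CPM in WT libraries, a fall of 0.41 (SE 0.104, adjusted p = 0.00407, edgeR). It did not pass with the 6 compared libraries or the 12 untransfected libraries alone, and passed without the 4 libraries (fall of 0.40, adjusted p = 0.000295). Transfected cells had 391, 392 and 380 CPM in TNRC6AB-/- siTNRC6C, against 352, 365 and 379 CPM in TNRC6AB-/- siGL2 and 354, 346 and 399 CPM in WT siGL2. TNRC6AB-/- siTNRC6C overlapped WT siGL2 and not TNRC6AB-/- siGL2, and neither difference passed, although with the 12 transfected libraries alone the one against WT siGL2 did (log2 0.18, adjusted p = 0.0422, edgeR). Values of SMG1 are uncertain, since reads can be split with the 7 annotated near-identical copies SMG1P1 to SMG1P7 on the same chromosome. Of these copies 5 fell in TNRC6AB-/- against WT, beside 12.3% of all genes (6 without the 4 libraries, beside 16.6%). SMG1P2 (13.8 ± 3.11 CPM in TNRC6AB-/- and 25.9 ± 3.69 CPM in WT, SD, n = 3 each) had the smallest adjusted p, 9.18e-05 (edgeR). None fell in TNRC6AB-/- siGL2 or TNRC6AB-/- siTNRC6C against WT siGL2 (median log2 0.01 and 0.35), where 12.5% and 25.2% of all genes did, and 1 rose in the second, beside 17% of all genes. Without the 4 libraries 2 rose in the first and 4 in the second, beside 14.9% and 25.7% of all genes, and none fell. In WT siGL2 against WT 4 fell, beside 8.41% of all genes (5 without the 4 libraries, beside 12.7%).

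SMG8 (ENSG00000167447.12, chromosome 17, 59209400 to 59215247, plus strand) was not called in any of the 7 comparisons. In TNRC6AB-/- against WT it had 33.1, 37.9 and 40.8 CPM in TNRC6AB-/- libraries and 27.5, 24.4 and 34.9 CPM in WT libraries, groups that overlapped (log2 0.37, adjusted p = 0.0524, edgeR), and it passed without the 4 libraries (adjusted p = 0.0218). SMG9 (ENSG00000105771.13, chromosome 19, 43727992 to 43754990, minus strand) had 34.5, 34.2 and 34 CPM in TNRC6AB-/- siTNRC6C libraries, against 29.3, 29.8 and 28.7 CPM in WT siGL2 libraries. That rise of 0.23 (SE 0.0874, adjusted p = 0.0415, edgeR) was lost with any 1 of the 6 libraries left out (adjusted p up to 0.0953), yet passed with the 12 transfected libraries alone (adjusted p = 3.57e-05) and without the 4 libraries (0.21, adjusted p = 0.0297).

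Of the effectors bound by phosphorylated UPF1, SMG6 was higher in TNRC6AB-/- and TNRC6AB-/- siTNRC6C cells, and SMG5 in TNRC6A-/- cells. In TNRC6AB-/- siGL2 against WT siGL2 SMG6 did not pass (log2 0.17, adjusted p = 0.141, edgeR). SMG6 (ENSG00000070366.13, chromosome 17, 2059839 to 2303771, minus strand), the endonuclease, had 57.3, 59.4 and 50.8 CPM in TNRC6AB-/- libraries, against 43.3, 42.7 and 46.9 CPM in WT libraries. Its rise was 0.34 (SE 0.0808, adjusted p = 0.00273, edgeR) in TNRC6AB-/- and 0.23 (SE 0.0806, adjusted p = 0.0262, edgeR) in TNRC6AB-/- siTNRC6C against WT siGL2, where libraries had 50.9, 50.1 and 50.1 CPM against 42.5, 42.4 and 44.0 CPM. The first did not pass with the 12 untransfected libraries alone (adjusted p = 0.0572), on protein-coding transcripts, on length-scaled counts or on TPM (log2 0.06 on TPM + 1), and the second was lost without any of its 6 libraries except WT siGL2 replicate 3 (adjusted p up to 0.0773). The rises without the 4 libraries were 0.29 (adjusted p = 0.00428, edgeR) and 0.25 (adjusted p = 0.00464, edgeR).

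SMG5 (ENSG00000198952.8, chromosome 1, 156249224 to 156282825, minus strand) was higher in TNRC6A-/- cells, at 107, 80.7 and 93.7 CPM, against 78.7, 79.4 and 69.5 CPM in WT cells (log2 0.31, SE 0.098, adjusted p = 0.0382, edgeR). The groups did not overlap, and without TNRC6A-/- replicate 1, TNRC6A-/- replicate 3, WT replicate 1 or WT replicate 3 the call was lost (adjusted p up to 0.236, edgeR). Of 12 other settings it passed in 4. It was lost with the 6 compared or the 12 untransfected libraries alone, on protein-coding transcripts and on TPM. A replicate block, limma voom or no filter on low counts also lost it. The difference without the 4 libraries was 0.34 (adjusted p = 0.00678, edgeR). TNRC6AB-/- cells, at 71.2, 72.3 and 74.9 CPM, overlapped WT.

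UPF1 (ENSG00000005007.12, chromosome 19, 18831938 to 18868236, plus strand), the helicase on which the pathway turns, passed in none of the 7 comparisons by the main test. It had 83.6, 84.3 and 82.2 CPM in TNRC6AB-/- siTNRC6C libraries and 90.1, 93.7 and 76.0 CPM in WT siGL2 libraries (log2 -0.06, 95% interval -0.32 to 0.21). TNRC6AB-/- libraries had 73.7, 91.9 and 91.9 CPM and WT libraries 81.4, 75.9 and 89.5 CPM (log2 0.06, 95% interval -0.21 to 0.33). Its largest difference was in WT siTNRC6C, where 106, 101 and 109 CPM lay above 90.1, 93.7 and 76.0 CPM in WT siGL2. That difference, 0.28 on the log2 scale, did not pass in the fit of 24 libraries (adjusted p = 0.349, edgeR) and did with the 12 transfected libraries (adjusted p = 0.00037).

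Whether siTNRC6C acted differently in the double knockout than in WT cells was tested as an interaction. UPF2 (log2 difference of differences -0.48, SE 0.122, adjusted p = 0.0347, edgeR) and UPF3B (-0.60, SE 0.134, adjusted p = 0.0167, edgeR) passed, both lower, against 3.03% of all genes (2.13% lower). Their own changes with siTNRC6C were -0.33 and -0.38 in TNRC6AB-/- cells, and 0.15 and 0.23 in WT cells, where neither passed. With the 12 transfected libraries alone 5 members passed, UPF1, SMG5 and SMG8 in addition, against 27.5% of all genes in that fit. Without the 4 libraries the differences were -0.42 for UPF2 (adjusted p = 0.00433, edgeR) and -0.53 for UPF3B (adjusted p = 0.0021, edgeR). With 1 of the 12 libraries left out at a time, UPF2 passed only without TNRC6AB-/- siGL2 replicate 3 or WT siGL2 replicate 1 (adjusted p up to 0.119), and UPF3B failed without TNRC6AB-/- siGL2 replicate 2, TNRC6AB-/- siTNRC6C replicate 2, WT siTNRC6C replicate 1 or WT siGL2 replicate 3 (adjusted p up to 0.057). An interaction of TNRC6A and TNRC6B loss passed for SMG5 only, at -0.51 (SE 0.139, adjusted p = 0.0243, edgeR), against 7.75% of all genes (4.28% lower). It was lost without WT replicate 3, TNRC6A-/- replicate 1, TNRC6B-/- replicate 2 or 3, or TNRC6AB-/- replicate 2 (adjusted p up to 0.0888), with the 12 untransfected libraries alone (adjusted p = 0.216), without a filter on low counts, with limma voom and on TPM. Without the 4 libraries it was -0.61 (adjusted p = 0.00152, edgeR), and SMG1 passed as well.

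Several members differed between transfected and untransfected cells of 1 genotype. In WT siGL2 against WT, UPF3B rose by 0.51 (SE 0.0952, adjusted p = 0.00105, edgeR) and SMG8 by 0.48 (adjusted p = 0.0161, edgeR), and SMG1 fell by 0.30 and SMG9 by 0.29, 4 of 9 against 24.8% of all genes (16.4% up, 8.41% down). In TNRC6AB-/- siGL2 against TNRC6AB-/-, UPF3B rose by 0.57 (SE 0.0952, adjusted p = 0.000205, edgeR) and UPF2 by 0.29 (adjusted p = 0.0185, edgeR), 2 of 9 against 20.1% (9.74% up). The calls of SMG1 and SMG8 were lost without WT replicate 1 or 2 or WT siGL2 replicate 1 or 2 (adjusted p up to 0.222 and 0.11), that of SMG9 without WT replicate 1 or WT siGL2 replicate 1 or 2 (up to 0.0678), and that of UPF2 without TNRC6AB-/- replicate 1 or 3 or TNRC6AB-/- siGL2 replicate 1 (up to 0.107). UPF3B had 42.8, 44.3 and 42.1 CPM in TNRC6AB-/- siGL2 libraries, against 31.3, 29.6 and 26.0 CPM in TNRC6AB-/- libraries. Its rise passed in both genotypes in counts. On TPM it passed in TNRC6AB-/- cells (0.53, limma, adjusted p = 0.0306), while in WT cells UPF3B differed by 0.03 and SMG8 by 0.09 (adjusted p = 0.914 and 0.561), where the median of all genes was -0.20. The 6 libraries of WT siGL2 and WT fitted alone called none of the 9 genes and 0.352% of all genes. Mean fragment length was 196.7 to 214.1 bases in transfected libraries and 165.4 to 191.5 bases in the others, and its part in these differences was not tested.

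Other genes of the pathway were read as lists. Of 14 tested genes (of 15 listed) that assist NMD or translation termination, 2 rose and 6 fell in TNRC6AB-/- against WT (median log2 -0.32, all genes 0.01), where 17.2% of all genes rose and 12.3% fell. In TNRC6AB-/- siTNRC6C against WT siGL2 1 rose and 8 fell (median -0.43, all genes 0.01), beside 17.0% and 25.2% of all genes. These counts without the 4 libraries were 2 up and 7 down, and 1 up and 9 down. In that fit 21.2% of all genes rose and 16.6% fell in the first, and 25.7% and 32.8% in the second. In TNRC6AB-/- siTNRC6C against WT siGL2, RUVBL1, an ATPase that associates with SMG1, averaged 51.7 ± 1.96 CPM in TNRC6AB-/- siTNRC6C and 114 ± 16.8 CPM in WT siGL2 (SD, n = 3 each), a fall of 1.15 (adjusted p = 6.13e-08, edgeR). Its partner RUVBL2 averaged 62.6 ± 1.59 and 125 ± 16.7 CPM, a fall of 1 on the log2 scale (adjusted p = 1.43e-06, edgeR), and PABPC1, the poly(A)-binding protein, fell by 0.97 (adjusted p = 2.11e-06, edgeR). In TNRC6A-/- against WT none of the 14 passed by edgeR (3 had an unadjusted p under 0.05), where 8.52% of all genes rose and 5.47% fell. Without the 4 libraries 3 fell, beside 10% of all genes.

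Of 11 genes of the exon junction complex or bound to it, 5 fell and none rose by edgeR in TNRC6AB-/- siTNRC6C against WT siGL2 (median -0.21), beside 25.2% and 17.0% of all genes, among them ICE1, which binds the complex (60.7 ± 3.26 CPM in TNRC6AB-/- siTNRC6C and 120 ± 9.98 CPM in WT siGL2), EIF4A3, its RNA-clamping helicase (95.9 ± 2.47 and 211 ± 30.5 CPM), and MAGOH, a core subunit (33.8 ± 1.92 and 54.1 ± 8 CPM, SD, n = 3 each). In TNRC6AB-/- against WT 2 rose and 2 fell, beside 17.2% and 12.3% of all genes, ICE1 with the largest fall, 1.2 (adjusted p = 2.92e-09, edgeR). Without the 4 libraries 7 fell in the comparison with WT siGL2, beside 32.8% of all genes. In that with WT 3 rose and 2 fell, beside 21.2% and 16.6% of all genes.

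Genes with transcripts known as substrates of NMD were read beside the factors. Each value sums all transcripts of a gene, including any that NMD is not known to degrade. Of 18, 1 rose and 8 fell in TNRC6AB-/- against WT (median log2 -0.53, all genes 0.01), 1 rose and 9 fell in TNRC6AB-/- siTNRC6C against WT siGL2 (median -0.25), and 1 rose and 5 fell in TNRC6A-/- against WT (median -0.30). The shares of all genes that rose and fell were 17.2% and 12.3%, 17.0% and 25.2%, and 8.52% and 5.47% in these comparisons. Without the 4 libraries the counts were 2 up and 10 down, 3 up and 9 down, and 1 up and 9 down. The shares of all genes in that fit were 21.2% and 16.6%, 25.7% and 32.8%, and 14.2% and 10%. In TNRC6AB-/- siGL2 against WT siGL2 1 rose and 1 fell (median -0.05), beside 9.17% and 12.5% of all genes. Without the 4 libraries 2 rose and 7 fell there (median -0.14), beside 14.9% and 22.6% of all genes. TNRC6AB-/- siGL2 against TNRC6AB-/- had 5 up and none down (median 0.29), beside 9.74% and 10.4% of all genes. It had 8 up and none down without the 4 libraries, beside 15.3% and 16.5% of all genes. In TNRC6B-/- against WT none was called by the main test, beside 2.2% of all genes up and 0.94% down. Without the 4 libraries 9 rose and none fell there (median 0.31), beside 17.4% and 7.52% of all genes. By the main test, the gene that rose in the first 3 comparisons was CDKN1A, the cell cycle inhibitor p21 (531 ± 16.5 CPM in TNRC6AB-/- siTNRC6C and 176 ± 14.3 CPM in WT siGL2, SD, n = 3 each), whose transcription other pathways also set. Among those that fell were the snoRNA host genes SNHG12 (28.6 ± 1.06 and 47.8 ± 2.94 CPM) and SNHG1 (100 ± 1.89 and 176 ± 13.1 CPM).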

How the data were processed

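HCT116 RNA was read in 24 libraries, and the labels name a strand-specific Illumina kit. The authors quantified transcripts with Salmon 0.11.0 and deposited, per library, an estimated count of reads and TPM for 199612 transcripts; the submitters' notes also name STAR 2.5.3a, DESeq2 and hg38. Identifiers were joined to GENCODE 29 (199368 matched, 244 unmatched with at most 0.0544% of reads), summed to 57721 genes and rounded to whole numbers. Depth was 28144290 to 42689320 reads.

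Genes passing filterByExpr (24153) were scaled by TMM and fitted in edgeR 4.0.16 (R 4.3.3) with 8 group means over 24 libraries (16 residual degrees of freedom); quasi-likelihood p-values received the Benjamini-Hochberg adjustment across these genes and were called below 0.05. Standard errors were derived from each F statistic. Members, lists and the naming rule (the 9 genes, the TNRC6 genes, up to 3 called genes of each list per comparison, 3 genes most like the member called most often) were chosen with earlier results of these data known. The fit was tested on simulated data with known changes. Alternatives used DESeq2 1.42.0, limma 3.58.1, TPM with pseudocounts of 1 and 0.1, other scalings, filters and subsets of libraries. The fit without 4 libraries was added after seeing the data, and UPF3A and UPF3B transcript pairs were chosen then. Exon sequences are from the GENCODE 29 transcripts; figures used matplotlib 3.10.9. No count test was run on transcripts.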

Additional observations from a re-analysis of the deposited data

Results flagged for a closer look

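For 2 genes the effect of siTNRC6C differed between the double knockout and WT cells by an interaction test across all genes in edgeR. The difference was -0.48 for UPF2 (adjusted p = 0.0347, edgeR) and -0.60 for UPF3B (adjusted p = 0.0167, edgeR). For both genes all 3 libraries of TNRC6AB-/- siTNRC6C lay below all 3 of TNRC6AB-/- siGL2. All 3 libraries of WT siTNRC6C lay above all 3 of WT siGL2. Such separation by CPM was common, in 8 of the 9 members in the first comparison and 5 of the 9 in the second. Overlap was not counted over all genes. For SMG5 the effect of losing both TNRC6A and TNRC6B differed from the sum of the single losses by -0.51 (adjusted p = 0.0243, edgeR). SMG5 averaged 72.8 ± 1.90 CPM in TNRC6AB-/-, 93.9 ± 13.4 CPM in TNRC6A-/-, 83.6 ± 9.47 CPM in TNRC6B-/- and 75.9 ± 5.51 CPM in WT (SD, n = 3 each).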

How the results depend on the processing

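Calls changed as follows, with the count given in the report in brackets. The share of all genes called changed between settings as well, and is given here only for the fit without the 4 libraries. Whether the members' counts moved more than that share was not tested. Without a filter on low counts there were 1 in TNRC6A-/- (3), 3 in TNRC6AB-/- siTNRC6C against WT siGL2 (5), 0 against TNRC6AB-/- siGL2 (2), 0 in TNRC6AB-/- siGL2 against WT siGL2 (1), 1 in TNRC6AB-/- siGL2 against TNRC6AB-/- (2), and 1 (2) and 0 (1) in the interactions with siTNRC6C and between TNRC6A and TNRC6B. The 6 compared libraries alone gave 1 in TNRC6A-/-, 1 in TNRC6AB-/- (3), 1 in WT siTNRC6C (0), 6 in TNRC6AB-/- siGL2 against WT siGL2 and 0 in WT siGL2 against WT (4), and the 12 of the interactions gave 5 and 0. The 12 libraries of 1 transfection state gave 0 in TNRC6A-/-, 1 in TNRC6AB-/-, 5 in WT siTNRC6C, 6 in TNRC6AB-/- siGL2 against WT siGL2, 7 in TNRC6AB-/- siTNRC6C against WT siGL2 and 3 against TNRC6AB-/- siGL2; the median of all genes was 0.11 in TNRC6AB-/- siTNRC6C against WT siGL2, where UPF2 stood at -0.56. Length-scaled counts gave 1 in TNRC6AB-/- siGL2 against TNRC6AB-/- and 1 in the siTNRC6C interaction, protein-coding transcripts 3 in TNRC6AB-/- siTNRC6C against WT siGL2, DESeq2 1 in TNRC6B-/- (0), and limma voom 1 in WT siTNRC6C, 4 in the siTNRC6C interaction and 0 in the other. On TPM, with either pseudocount, counts were 0 in TNRC6A-/-, 1 in TNRC6AB-/-, 7 in TNRC6AB-/- siTNRC6C against WT siGL2 (all higher), 0 against TNRC6AB-/- siGL2, 3 in TNRC6AB-/- siGL2 against WT siGL2, 2 in WT siGL2 against WT and 0 in both interactions. On TPM in TNRC6AB-/- siTNRC6C against WT siGL2 the sign turned for UPF1 (0.69 and 0.72 with pseudocounts of 1 and 0.1), UPF3B (0.30 and 0.32) and SMG8 (0.47 and 0.52), where the median of all genes was 0.30 and 0.54. Members highest in TNRC6AB-/- siTNRC6C numbered 5 by TPM and 1 by CPM, and the median coding share of a member was 71.5% of TPM and 94.6% of reads. Without the 4 libraries, 2 were called in TNRC6B-/-, 2 in TNRC6AB-/- siGL2 against WT siGL2, 5 in TNRC6AB-/- siGL2 against TNRC6AB-/- and 2 in the TNRC6A and TNRC6B interaction. In that fit, in the same order, 17.4%, 14.9%, 15.3% and 9.31% of all genes rose, and 7.52%, 22.6%, 16.5% and 13.8% fell.

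With each library left out in turn, 1 to 3 members were called in TNRC6A-/-, 0 to 1 in TNRC6B-/-, 3 to 4 in TNRC6AB-/-, 2 to 4 in TNRC6AB-/- siTNRC6C against WT siGL2, 0 to 2 against TNRC6AB-/- siGL2, 0 in WT siTNRC6C, 1 in TNRC6AB-/- siGL2 against WT siGL2, 1 to 5 in WT siGL2 against WT, 1 to 3 in TNRC6AB-/- siGL2 against TNRC6AB-/-, 0 to 2 in the siTNRC6C interaction and 0 to 1 in the other; where this left 1 group with 2 libraries, spread was pooled. A replicate block gave 2 in TNRC6A-/- (SMG5 lost) and 1 in the siTNRC6C interaction (UPF2 at -0.48, adjusted p = 0.0554, edgeR). Replicate numbers did not pair the libraries: the lowest correlation of same-numbered deviations in a comparison lay between -0.284 and 0.0537. Shares of all genes called are not given for these fits, and the cause of each change was not tested.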
